A study of Mus musculus with 6 samples.

Results

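Glycolytic control, glucose transport and lactate transport were followed in the RNA of mouse tibialis anterior through 8 genes: Pfkfb1, Pfkfb3, Fbp2, Gpd1, Ldha, Slc2a4, Slc2a1 and Slc16a3. The genes were named for their roles in glucose use and were matched by symbol in the deposited expression tables. All 8 were found among the 11239 genes listed, and all 8 reached the mean of 1 FPKM (fragments per kilobase of transcript and per library size) over the 6 libraries that the 7690 tested genes had to reach. The study profiled the tibialis anterior, a fast-contracting muscle of the shin, of C57BL/6 mice at 3 months of age (young, 3 libraries) and 18 months of age (aged, 3 libraries). The labels name no mutation, treatment or sex for either group. TRIzol-extracted total RNA of the whole muscle went into Illumina libraries. The study's title concerns muscle-secreted G-CSF, metabolism and muscle stem cells, and the comparison asked how transcripts of the muscle differ with age.

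Skeletal muscle takes up glucose through the transporters GLUT4, which insulin and contraction bring to the cell surface, and GLUT1, which serves basal uptake. Phosphofructokinase commits the sugar to glycolysis and is switched on by fructose 2,6-bisphosphate. The bifunctional PFKFB enzymes make and break that signal, and fructose-1,6-bisphosphatase runs the opposing step. Lactate dehydrogenase and the cytosolic glycerol-3-phosphate dehydrogenase return NAD+ to glycolysis, and MCT4 carries lactate out of fast fibres with protons.

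Of the 8 genes, 2 rose and 5 fell in aged muscle at an adjusted p under 0.05 (limma, Benjamini-Hochberg over 7690 genes). Among all tested genes 51.8% passed that threshold, 27.3% higher and 24.5% lower. Pfkfb3 and Fbp2 rose. Pfkfb1, Slc16a3, Slc2a4, Gpd1 and Ldha fell, and Slc2a1 did not pass. The young and aged values did not overlap for the same 7 genes, against 62.8% of all tested genes (33.8% higher and 29% lower). The median log2 change was -0.28 over the 8 genes and 0.02 over all tested genes. The calls of Pfkfb1, Pfkfb3, Fbp2, Slc2a4 and Slc16a3 held under all 16 alternative settings of the fit, while those of Gpd1 and Ldha did not. Without aged replicate 3, which stood apart for the glycolytic gene Gapdh, 2 genes rose and 4 fell. Of the 7690 tested genes 1769 were then higher and 1607 lower. With any single library left out, 2 of the 8 genes rose and 3 to 5 fell.

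Library totals recovered from the FPKM values lay between 71984420 and 102135094 fragments, so the rarest of the 8 mRNAs, Slc2a1, still rested on 853 to 1321 fragments per library. Nothing in the labels says that each library came from its own animal, so the p-values measure the spread between these samples. How the listed genes were selected, for a difference with age or otherwise, is not stated in the sources used here. Shares of called genes and adjusted p-values therefore hold for the listed genes only. Fast-fibre markers matched the labelled tissue, with 9 of 9 detected and a summed level of 70526 to 74270 FPKM in young and 70986 to 74824 FPKM in aged libraries, and within the list 2 genes rose and 3 fell. The myosin genes were among them, with the type 2A gene Myh2 at 899 ± 126 FPKM in young and 206 ± 18.9 FPKM in aged muscle (-2.12 in log2, adjusted p = 2.01e-05, limma), the type 2X gene Myh1 1.59-fold lower and the type 2B gene Myh4 1.39-fold higher in aged muscle. The 7 slow-fibre markers summed to 154 to 196 FPKM in young and 111 to 185 FPKM in aged libraries, with 5 of them called higher and 1 lower. Summed endothelial markers (8 of 8 listed) ran from 267 to 312 FPKM in young and from 213 to 267 FPKM in aged libraries. Macrophage markers (6 of 8 listed) ran from 38.3 to 60.7 and from 17.9 to 37.8 FPKM, Schwann cell and perineurium markers (6 of 6) from 88 to 100 and from 64.4 to 67 FPKM, and neutrophil markers (4 of 5) from 0.364 to 1.08 and from 1.26 to 26.7 FPKM. The neutrophil sum of 26.7 FPKM belonged to aged replicate 3, beside 2.67 and 1.26 FPKM in aged replicates 1 and 2. The tested neutrophil genes, S100a8 and S100a9, did not pass (adjusted p = 0.176 and 0.0838, limma). Adipocyte markers (7 of 7) ran from 68.5 to 81 and from 81.7 to 85.8 FPKM, and erythroid markers (4 of 5) from 124 to 182 and from 228 to 236 FPKM. No listed marker of these cell types was at 0 in every library, and the hepatocyte markers were not analysed here. In whole muscle, a change in the number of cells of a type and a change in RNA per cell cannot be told apart, and the part of these markers in the results was not tested.

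**Figure D1:**
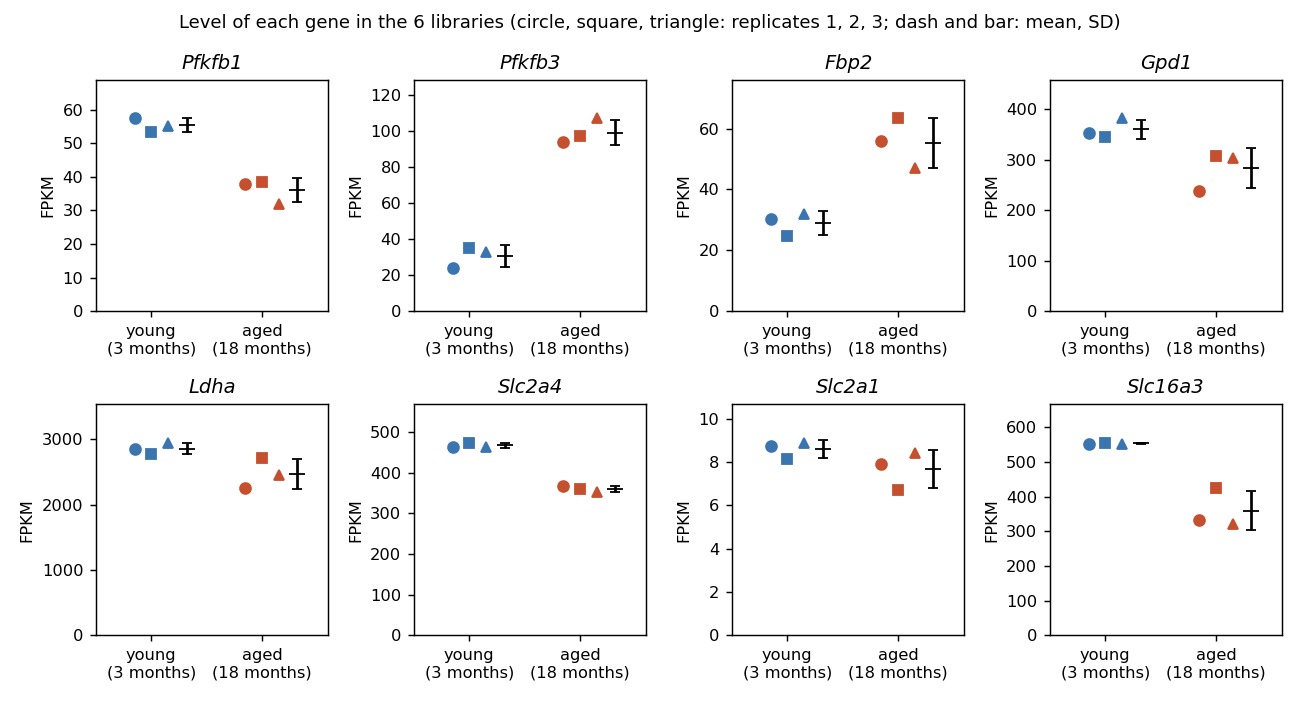
FPKM of each of the 8 genes (y axis of each panel, starting at 0) in the 3 young and 3 aged libraries, with markers for replicates 1 to 3 and the mean and SD at the side. Pfkfb3 and Fbp2 stand higher in every aged library than in any young library, Pfkfb1, Gpd1, Ldha, Slc2a4 and Slc16a3 stand lower, and the Slc2a1 values overlap.

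Promoter sequences are shown for the pair of genes that rose, Pfkfb3 and Fbp2, and for both lactate genes that fell, Ldha and Slc16a3, because hypoxia-inducible factors and E-box factors are known regulators of glycolytic genes. Capitals mark ACGTG or GCGTG, the core letters of the hypoxia response element, on either strand, and CACGTG, the E-box that holds ACGTG on both strands. Each sequence is the 250 bases before an annotated start, read 5′ to 3′ on the strand of the gene (RefSeq, GRCm38.p6). The windows are chr2:11553930-11554179 and chr2:11502091-11502340 on the minus strand for Pfkfb3, chr13:62858401-62858650 on the minus strand for Fbp2, chr7:46845554-46845803 on the plus strand for Ldha and chr11:120948817-120949066 on the plus strand for Slc16a3.
Pfkfb3, start 1: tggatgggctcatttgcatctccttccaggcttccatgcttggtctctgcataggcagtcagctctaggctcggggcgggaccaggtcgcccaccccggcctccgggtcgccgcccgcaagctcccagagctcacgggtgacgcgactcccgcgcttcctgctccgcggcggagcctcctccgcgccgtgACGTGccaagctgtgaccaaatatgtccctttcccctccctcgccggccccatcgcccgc
Pfkfb3, start 2: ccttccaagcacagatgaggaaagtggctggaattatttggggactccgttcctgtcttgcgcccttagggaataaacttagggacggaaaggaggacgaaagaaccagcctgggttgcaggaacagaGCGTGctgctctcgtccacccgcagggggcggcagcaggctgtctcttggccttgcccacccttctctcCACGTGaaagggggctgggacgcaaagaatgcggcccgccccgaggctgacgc
Fbp2: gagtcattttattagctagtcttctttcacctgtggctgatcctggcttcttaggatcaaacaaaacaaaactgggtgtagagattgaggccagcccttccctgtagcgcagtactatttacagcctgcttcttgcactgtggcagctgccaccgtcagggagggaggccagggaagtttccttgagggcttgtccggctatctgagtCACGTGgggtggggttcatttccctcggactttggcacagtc
Ldha, start 1: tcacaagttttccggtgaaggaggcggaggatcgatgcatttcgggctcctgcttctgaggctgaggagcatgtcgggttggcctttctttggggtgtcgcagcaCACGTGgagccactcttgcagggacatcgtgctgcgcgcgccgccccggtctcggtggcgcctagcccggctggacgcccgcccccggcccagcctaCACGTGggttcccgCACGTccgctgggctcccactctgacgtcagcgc
Slc16a3: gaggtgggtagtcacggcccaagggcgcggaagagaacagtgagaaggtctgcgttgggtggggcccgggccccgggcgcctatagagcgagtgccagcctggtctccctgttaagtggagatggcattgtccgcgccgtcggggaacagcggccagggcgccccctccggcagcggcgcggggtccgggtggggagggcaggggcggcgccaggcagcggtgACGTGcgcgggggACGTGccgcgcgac
Each of these 5 windows holds ACGTG. A further start of Ldha, not printed, holds GCGTG but neither ACGTG nor CACGTG, so the Ldha window shown is the one of its starts that carries ACGTG. The RefSeq table held 11 starts for 6 of the 8 genes, and Slc2a4 and Gpd1 had no entry. ACGTG was present before 6 of the 11 starts, in 5 of the 6 genes, and before 16.6% of all 32851 promoters over the same 250 bases. Pfkfb1, which fell and is not printed, had ACGTG before none of its starts. GCGTG was present before 4 of 11 starts and 28.2% of all promoters. CACGTG stood before Pfkfb3 start 2, Fbp2 and Ldha start 1, in the last of these with 2 matches, and before 6.02% of all promoters. Of other motifs searched on both strands, CAGCTG was present before 2 of 11 starts and 13% of all promoters, GGGCGG before 6 of 11 and 32.7%, and the MEF2 consensus before 1 of 11, a start of Pfkfb1, and 2.92%. The G and C content of the 11 windows ran from 42.4% to 73.6%, beside a median of 52.4% over all promoters, and its part in these matches was not tested. A match describes letters and not a bound site, and the expression values are per gene and do not say which start was used.

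Pfkfb3 showed the largest change among the 8. It encodes the isoform with by far the higher kinase activity and so favours fructose 2,6-bisphosphate (chr2:11471433-11554077, minus strand, GRCm38). Its FPKM was 23.8, 34.8 and 33 in the young libraries and 93.7, 96.9 and 107 in the aged ones, in the order of replicates 1 to 3 as for every gene. Young replicate 1 was the lowest library, and all aged libraries lay well above all young ones. The mean rose 3.25-fold, from 30.5 ± 5.91 to 99.1 ± 6.72 FPKM (SD, n = 3 each). On the scale of log2(FPKM + 1) the rise was 1.68 ± 0.13 (SE, 95% interval 1.37 to 1.99, adjusted p = 0.000121, limma), which placed Pfkfb3 19th of 7690 genes by size of log2 rise. An annotated antisense gene, Gm10851, lies within Pfkfb3 and was not analysed here.

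Pfkfb1, the isoform of liver and muscle whose products differ in their kinase and phosphatase balance, moved the other way (chrX:150588229-150643878, plus strand). It stood at 57.5, 53.3 and 55.3 FPKM in the young libraries and at 37.8, 38.4 and 32 FPKM in the aged ones. The groups were far apart relative to their spread, with aged replicate 3 the lowest. Its mean fell 1.54-fold, from 55.4 ± 2.1 to 36.1 ± 3.56 FPKM, a log2 change of -0.61 ± 0.08 (adjusted p = 0.000896, limma). Its first bases overlap Apex2 on the other strand, a gene at no more than 4 FPKM in any library. Pfkfb1 was the higher of both genes in each young library and the lower in each aged library. The ratio of Pfkfb3 to Pfkfb1 was 0.414, 0.653 and 0.596 in young and 2.48, 2.52 and 3.33 in aged libraries, a 5.06-fold difference, higher in 3 of 3 aged libraries than in any young one. With 3 libraries against 3 the exact permutation test cannot give a p under 0.1, and this ratio reached that value (two-sided, 0.2 adjusted over the 6 ratios examined).

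The other family members were described after their values were seen as parts of a sum. Pfkfb4, a further kinase-favouring isoform, stood at 44.2 ± 2.52 FPKM in young and 30.5 ± 3.81 FPKM in aged muscle (a fall of -0.53 in log2, adjusted p = 0.00338, limma), and Pfkfb2, the isoform best known from heart, rose from 4.32 ± 0.257 to 6.04 ± 0.103 FPKM (0.41, adjusted p = 0.00239). Pfkfb3 made up 22.6 ± 3.76% of the summed FPKM of the 4 genes in young muscle and 57.7 ± 2.98% in aged muscle. The share of Pfkfb1 was 41.3 ± 2.92% and 21 ± 2.51%, and that of Pfkfb4 32.9 ± 1.75% and 17.8 ± 2.04%. The sum itself was 134 ± 4.43 FPKM in young and 172 ± 3.94 FPKM in aged muscle. The largest share was therefore held by Pfkfb1 in each young library and by Pfkfb3 in each aged one.

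**Figure D2:**
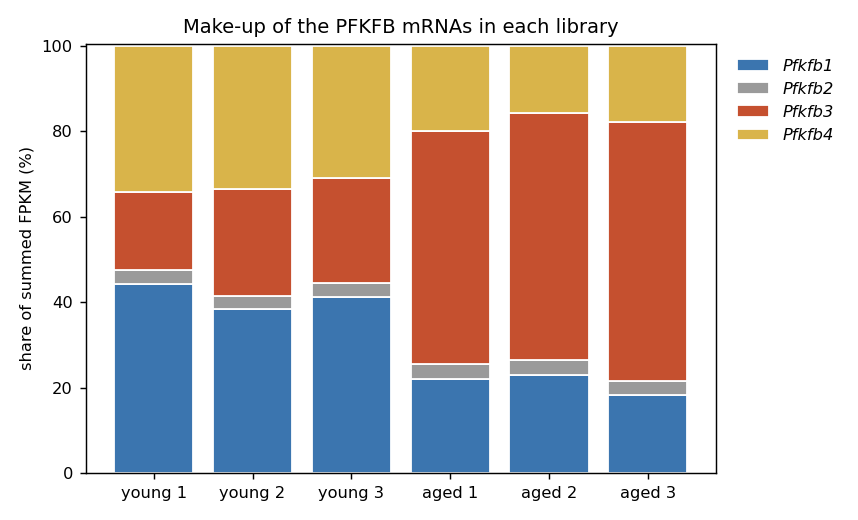
Share of each of the 4 PFKFB genes (stacked bars, percent of their summed FPKM, y axis from 0) in each of the 6 libraries. The Pfkfb3 share runs from 18.3% to 25.1% in the young libraries and from 54.7% to 60.6% in the aged ones.

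Fbp2 encodes the muscle fructose-1,6-bisphosphatase, which opposes phosphofructokinase in the making of glycogen from lactate (chr13:62836884-62858400, minus strand). It stood at 30.4, 24.7 and 32 FPKM in young and at 55.9, 63.4 and 46.9 FPKM in aged libraries. The lowest aged library was above the highest young one, and the aged libraries were the more spread. The mean rose 1.91-fold, from 29 ± 3.85 to 55.4 ± 8.24 FPKM (log2 change 0.91 ± 0.13, adjusted p = 0.00125, limma), 133rd by size of rise. Pfkm, the phosphofructokinase subunit of muscle, stood at 1831 ± 44.2 FPKM in young and 1730 ± 163 FPKM in aged muscle and did not pass (adjusted p = 0.372, limma). The level of Fbp2 as a share of that of Pfkm was 1.65%, 1.38% and 1.71% in young and 3.25%, 3.34% and 2.98% in aged libraries. That was 2.02-fold higher, without overlap, at the smallest p of the exact permutation test (0.1, two-sided, 0.2 adjusted).

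Gpd1, the cytosolic glycerol-3-phosphate dehydrogenase, takes electrons from NADH to the mitochondrial Gpd2 and makes the glycerol backbone of lipids (chr15:99717515-99725005, plus strand). It stood at 352, 345 and 382 FPKM in young and at 237, 307 and 304 FPKM in aged libraries. Aged replicate 1 was the lowest, and the other aged libraries lay closer to the young ones. The mean fell 1.27-fold, from 360 ± 19.3 to 283 ± 39.5 FPKM (log2 change -0.35 ± 0.10, adjusted p = 0.0229, limma). Without aged replicate 1 the log2 change was -0.23 (adjusted p = 0.0288), and without young replicate 3 it was -0.31 and no longer passed (adjusted p = 0.075). The ratio of Gpd1 to Gpd2 ran from 5.08 to 5.6 in young and from 3.66 to 5.24 in aged libraries, which overlapped (exact permutation p = 0.2, two-sided, 0.3 adjusted). Gpd2 itself did not pass (adjusted p = 0.202, limma). An annotated antisense gene, Gm16537, lies over most of Gpd1, and strandedness is not stated in the sources used here, so reads of the pair cannot be told apart.

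Ldha encodes the lactate dehydrogenase subunit that favours lactate formation and was the most abundant of the 8 mRNAs (chr7:46841475-46855627, plus strand). It stood at 2855, 2768 and 2946 FPKM in young and at 2253, 2715 and 2447 FPKM in aged libraries. The groups did not overlap, but aged replicate 2 lay close to young replicate 2. The mean fell 1.16-fold, from 2856 ± 89.3 to 2471 ± 232 FPKM, a log2 change of -0.21 ± 0.08 (95% interval -0.39 to -0.03, adjusted p = 0.0488, limma). This call was near the threshold: with the replicate number as a block the adjusted p was 0.071, and under quantile normalization the change was 0.11, of the opposite sign, and did not pass (adjusted p = 0.167). It also did not pass without young replicate 1, 2 or 3 or aged replicate 1 or 3 (adjusted p 0.0792 to 0.144), while without aged replicate 2 it passed (-0.28, adjusted p = 0.0137). Ldhb, the subunit that favours pyruvate formation, stood at 143 ± 12.7 and 135 ± 9.42 FPKM and did not pass (adjusted p = 0.434). The ratio of Ldha to Ldhb overlapped between groups (16.3 to 19.7 in aged, 18.9 to 21.6 in young, exact permutation p = 0.5, two-sided, 0.5 adjusted). Ldha made up 95.2 ± 0.301% of their sum in young and 94.8 ± 0.524% in aged muscle. A processed pseudogene, Ldha-ps2, was listed at 8.13 FPKM in young and 6.95 FPKM in aged muscle and could share reads with Ldha.

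Slc16a3, the gene of MCT4, is the main lactate exporter of fast glycolytic fibres (chr11:120948480-120960868, plus strand). Its young libraries were nearly equal, at 553, 556 and 553 FPKM, and its aged libraries stood at 334, 424 and 320 FPKM. Aged replicate 2 was the highest of the aged libraries and still well below the young ones. The mean fell 1.54-fold, from 554 ± 1.72 to 359 ± 56.4 FPKM (log2 change -0.63 ± 0.10, adjusted p = 0.0021, limma), and without aged replicate 2 the log2 change was -0.76. Slc16a1, the gene of MCT1, which carries lactate in either direction, stood at 10.5 ± 0.871 FPKM in young and 11.8 ± 0.218 FPKM in aged muscle and did not pass (adjusted p = 0.0897). The ratio of Slc16a3 to Slc16a1 was 50.2, 58.8 and 50.8 in young and 27.8, 36.6 and 27 in aged libraries. It was 1.76-fold lower in aged muscle without overlap, at the smallest p of the exact permutation test (0.1, two-sided, 0.2 adjusted). Bsg, the chaperone that brings both transporters to the membrane, stood at 443 ± 1.85 FPKM in young and 401 ± 26.1 FPKM in aged muscle and did not pass (adjusted p = 0.0785).

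**Figure D3:**
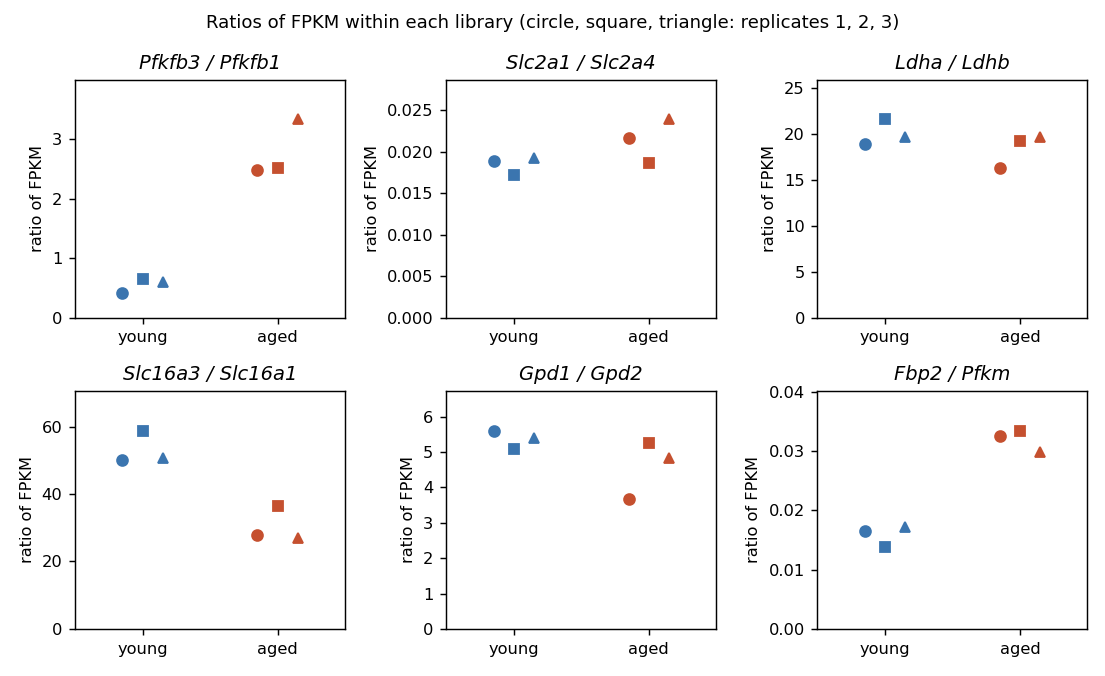
Ratio of FPKM of 6 gene pairs within each library (y axis of each panel, starting at 0), with markers for replicates 1 to 3 of the young and aged groups. The ratios of Pfkfb3 to Pfkfb1, Fbp2 to Pfkm and Slc16a3 to Slc16a1 do not overlap between the groups, and those of Slc2a1 to Slc2a4, Ldha to Ldhb and Gpd1 to Gpd2 do.

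Slc2a4, the gene of GLUT4, had the smallest standard error of the 8 log2 changes (chr11:69942539-69948188, minus strand). It stood at 464, 474 and 463 FPKM in young and at 368, 361 and 352 FPKM in aged libraries. Each group spanned a narrow range and the gap between them was many times that range. The mean fell 1.3-fold, from 467 ± 6.31 to 360 ± 8.04 FPKM (log2 change -0.37 ± 0.05, 95% interval -0.49 to -0.26, adjusted p = 0.000925, limma).

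Slc2a1, the gene of GLUT1, is also expressed by endothelial cells and perineurium (chr4:119108711-119137983, plus strand). It stood at 8.76, 8.16 and 8.9 FPKM in young and at 7.93, 6.71 and 8.4 FPKM in aged libraries. The groups overlapped, with aged replicate 2 the lowest library. Means were 8.61 ± 0.397 and 7.68 ± 0.87 FPKM, and the log2 difference of -0.15 ± 0.09 did not pass (95% interval -0.35 to 0.05, adjusted p = 0.177, limma). Without aged replicate 2 the difference was -0.07 (adjusted p = 0.451). The antisense gene Gm12868 at its end stood at no more than 0.0264 FPKM. Slc2a1 was 1.89%, 1.72% and 1.92% of Slc2a4 in young and 2.16%, 1.86% and 2.39% in aged libraries, values that overlapped (exact permutation p = 0.3, two-sided, 0.36 adjusted). Among the 4 glucose transporter genes that were tested, Slc2a4 held 96.1 ± 0.18% of the summed FPKM in young and 93.9 ± 0.701% in aged muscle, a sum formed after the values were seen. Slc2a3, the high-affinity transporter GLUT3, rose from 4.35 ± 0.269 to 10.3 ± 1.89 FPKM (log2 change 1.06, adjusted p = 0.000441, limma), and its share of that sum was 0.894 ± 0.0498% and 2.68 ± 0.529%.

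**Figure D4:**
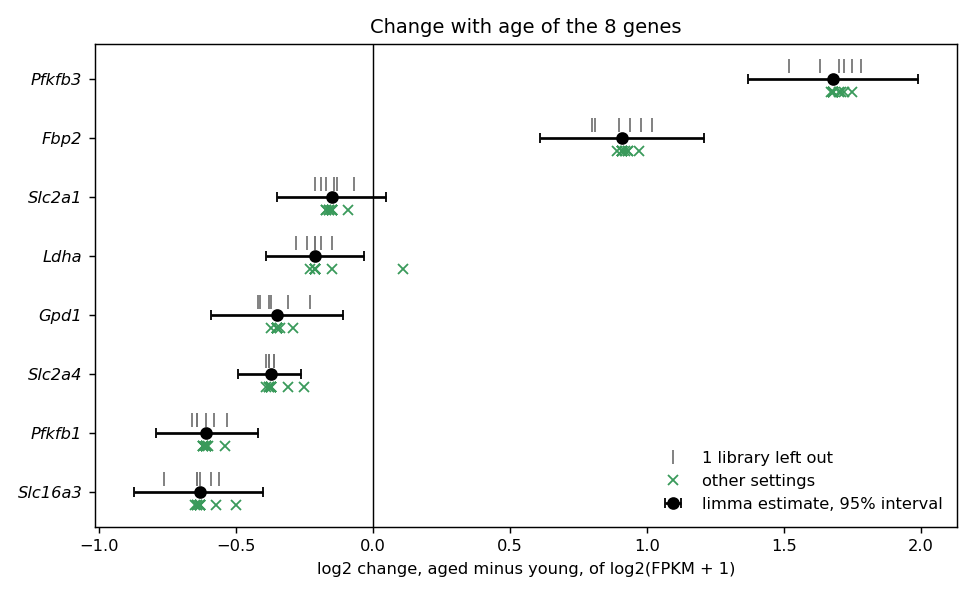
Log2 change with age (x axis, aged minus young, of log2(FPKM + 1)) of the 8 genes, with the limma estimate and its 95% interval (black), the estimate with each library left out (grey ticks) and under the other settings (green crosses). The 95% intervals of Pfkfb3 (1.37 to 1.99) and Fbp2 (0.61 to 1.21) lie above 0, that of Slc2a1 (-0.35 to 0.05) spans 0, and a single setting puts Ldha above 0, at 0.11.

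The order of the levels differed between ages, in FPKM and as a description. In young muscle it ran Ldha, Slc16a3, Slc2a4, Gpd1, Pfkfb1, Pfkfb3, Fbp2 and Slc2a1, and only the neighbours Pfkfb3 (23.8 to 34.8) and Fbp2 (24.7 to 32) overlapped in range. In aged muscle it ran Ldha, Slc2a4, Slc16a3, Gpd1, Pfkfb3, Fbp2, Pfkfb1 and Slc2a1, and only Slc2a4 (352 to 368) and Slc16a3 (320 to 424) overlapped. Ldha was 332 times Slc2a1 in young and 322 times in aged muscle by mean FPKM. Levels between genes depend on the length that each count was divided by. For 7 of the 8 genes that length equalled the mean over all annotated transcripts, and only for Fbp2 it did not (1325 bases beside a mean of 863 bases). Divided instead by the longest protein-coding transcript, a choice made after the data were seen, Slc16a3 moved from the second to the fourth place in young muscle and from the third to the fourth in aged muscle, where Gpd1 and Slc16a3 then overlapped at both ages. Pfkfb1 kept its place in both groups, while Pfkfb3 and Fbp2 exchanged places by mean in both groups. In aged muscle the ranges of Fbp2 (45.9 to 62) and Pfkfb3 (43.2 to 49.1) overlapped on this scale. Changes with age of a single gene do not depend on this length.

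Other genes of the same pathways were counted from lists by role, each read against the 27.3% of all tested genes called higher and the 24.5% called lower. Those shares belong to the main fit. When adjusted over all annotated genes, 983 of the 7690 tested genes were higher and 904 lower, and list counts under that setting are read against these. Among hexokinases, phosphofructokinase subunits, the other PFKFB genes, pyruvate kinases and Tigar, 2 of 9 tested genes rose and 4 fell, with a median log2 change of -0.24. Hk2, the main hexokinase of muscle, fell from 247 ± 12 to 178 ± 25.1 FPKM (-0.48, adjusted p = 0.0064, limma). Tigar, a phosphatase that lowers fructose 2,6-bisphosphate, rose from 52.1 ± 3.21 to 84.2 ± 8.22 FPKM (0.68, adjusted p = 0.000658). Pfkfb3 and Tigar, whose products act on the same metabolite in opposite senses, were thus both higher. Among the other glycolytic enzymes 1 of 10 rose and 5 fell (median -0.26), led by the enolase Eno1, from 92.8 ± 2.5 to 59.2 ± 0.73 FPKM (-0.64, adjusted p = 0.000121). Bpgm, the 2,3-bisphosphoglycerate mutase, rose from 53.2 ± 3.71 to 73.2 ± 9.43 FPKM (0.45, adjusted p = 0.00717). Bpgm is abundant in red cells, whose summed markers were higher in the aged libraries, with 2 of 4 tested markers called higher and 2 not called. The part of red cells in the Bpgm rise was not tested. The call of Bpgm was lost when adjusted over all annotated genes (adjusted p = 0.0517). The count of falls among the other glycolytic enzymes went from 1 to 6 over the alternatives. It was 2 without young replicate 3 and 3 without young replicate 2.

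Among other glucose transporters and proteins of GLUT4 vesicle traffic, 6 of 15 tested genes rose and 4 fell (median 0.07), or 3 and 2 when adjusted over all annotated genes. The RabGAP genes Tbc1d1 and Tbc1d4, whose products hold GLUT4 vesicles inside the cell until phosphorylated, moved in opposite directions. Tbc1d1 stood at 110, 123 and 107 FPKM in young and at 52.9, 54.3 and 55.7 FPKM in aged libraries and fell 2.09-fold (-1.05, adjusted p = 5.16e-05, limma). Tbc1d4 stood at 9.42, 7.61 and 9.56 FPKM in young and at 16.7, 15.2 and 14.8 FPKM in aged libraries and rose 1.76-fold (0.75, adjusted p = 0.000723). The lower-expressed of the pair in young muscle was still the lower in every aged library. Txnip, which restrains glucose uptake, fell from 488 ± 48 to 368 ± 43 FPKM (-0.41, adjusted p = 0.0136), a call lost under quantile normalization (adjusted p = 0.0765) and when adjusted over all annotated genes (adjusted p = 0.098). Stxbp3, a partner of the syntaxin that docks GLUT4 vesicles, rose from 20.6 ± 0.349 to 28.2 ± 3.33 FPKM (0.43, adjusted p = 0.0058).

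Of the insulin signalling genes upstream of GLUT4, 2 of 8 rose and 3 fell (median 0.08), with 1 fall when adjusted over all annotated genes. Pik3r1, the regulatory subunit of phosphoinositide 3-kinase, fell from 74.6 ± 10.7 to 42.2 ± 4.05 FPKM (-0.80, adjusted p = 0.00134, limma), while its catalytic partner Pik3ca rose from 9.1 ± 0.29 to 12.2 ± 0.908 FPKM (0.38, adjusted p = 0.00378). Akt2, the Akt isoform tied to GLUT4 movement, rose from 209 ± 5.01 to 254 ± 13.8 FPKM (0.28, adjusted p = 0.00671).

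Of the lactate and pyruvate genes beside Ldha and Slc16a3, 1 of 11 rose and 5 fell (median -0.15), and none rose without young replicate 1, without young replicate 2 or when adjusted over all annotated genes. Gpt and Gpt2, the alanine transaminases that draw on pyruvate, both fell (-0.59, adjusted p = 0.00186, and -0.47, adjusted p = 0.000736, limma), as did Ldhd, the D-lactate dehydrogenase (-0.39, adjusted p = 0.00288). Pdk4, the kinase that shuts off pyruvate dehydrogenase, stood at 1914, 1845 and 1965 FPKM in young and at 926, 1859 and 871 FPKM in aged libraries. Aged replicate 2 lay within the young range, and the call (-0.74, adjusted p = 0.0426) was lost in 9 settings. Of the NADH shuttle genes beside Gpd1, none of 8 rose and 6 fell (median -0.26), while 3 fell under quantile normalization and 3 when adjusted over all annotated genes. Got2 and Got1, the transaminases of the malate-aspartate shuttle, fell from 406 ± 8.49 to 264 ± 19.3 FPKM (-0.62, adjusted p = 0.000366) and from 641 ± 12.4 to 464 ± 45.1 FPKM (-0.47, adjusted p = 0.00206), and Mdh1, its cytosolic malate dehydrogenase, from 592 ± 36.5 to 448 ± 15.3 FPKM (-0.40, adjusted p = 0.00195). Of the other gluconeogenic genes 1 of 5 rose and 1 fell (median 0.06), the glucose-6-phosphatase G6pc3 from 43.9 ± 1.44 to 52.1 ± 1.93 FPKM (0.24, adjusted p = 0.00957) and the mitochondrial Pck2 from 2.98 ± 0.12 to 2.08 ± 0.343 FPKM (-0.37, adjusted p = 0.0135). Both of these calls were lost when adjusted over all annotated genes (adjusted p = 0.069 and 0.0972).

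Of AMPK subunits, transcription factors known to act on glucose-use genes and the oxygen sensors and ubiquitin ligase subunit that control hypoxia-inducible factors (Egln1, Egln3, Hif1an and Vhl), 4 of 22 rose and 9 fell (median -0.06). Mef2a, a factor known to act on the Slc2a4 promoter, rose from 44.7 ± 0.701 to 69.3 ± 6.52 FPKM (0.62, adjusted p = 0.000628, limma) while Slc2a4 fell. Klf15, a further factor tied to Slc2a4, fell from 46.7 ± 6.44 to 28.3 ± 1.4 FPKM (-0.70, adjusted p = 0.00142). Foxo1, a factor restrained by insulin signalling and known to raise Pdk4, fell from 7.57 ± 1.03 to 3.12 ± 0.514 FPKM (-1.06, adjusted p = 0.00056). Epas1, the gene of HIF-2 alpha, fell from 71 ± 2.61 to 47.3 ± 5.16 FPKM (-0.58, adjusted p = 0.00138), and it is also an endothelial gene. Of the 8 endothelial markers 4 fell, 1 rose, the receptor gene Kdr (0.81, adjusted p = 0.00417), and 3 did not pass, and their summed levels met at 267 FPKM. Of 10 tested targets of hypoxia-inducible factors outside glycolysis none rose, 4 fell and 6 did not pass (median -0.18). Among the alternatives, 1 rose under rescaling without the 20 highest genes. With a minimum of 5 FPKM 2 fell, and 2 fell when adjusted over all annotated genes. The listed target Ankrd37 averaged under the minimum of 1 FPKM and was not among the 10. It stood at 0.654 ± 0.0211 FPKM in young and 1.32 ± 0.317 FPKM in aged muscle, without overlap. In the fit with no minimum level its log2 change was 0.48 (adjusted p = 0.0144, limma). Ddit4, a brake on mTORC1, was among the genes that fell, at 124 ± 10.7 and 12.2 ± 2.17 FPKM (-3.25, adjusted p = 1.12e-05, limma). Pfkfb3, itself a known target of these factors, rose, while the called genes of this list fell. The part of these factors in either change was not tested.

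**Figure D5:**
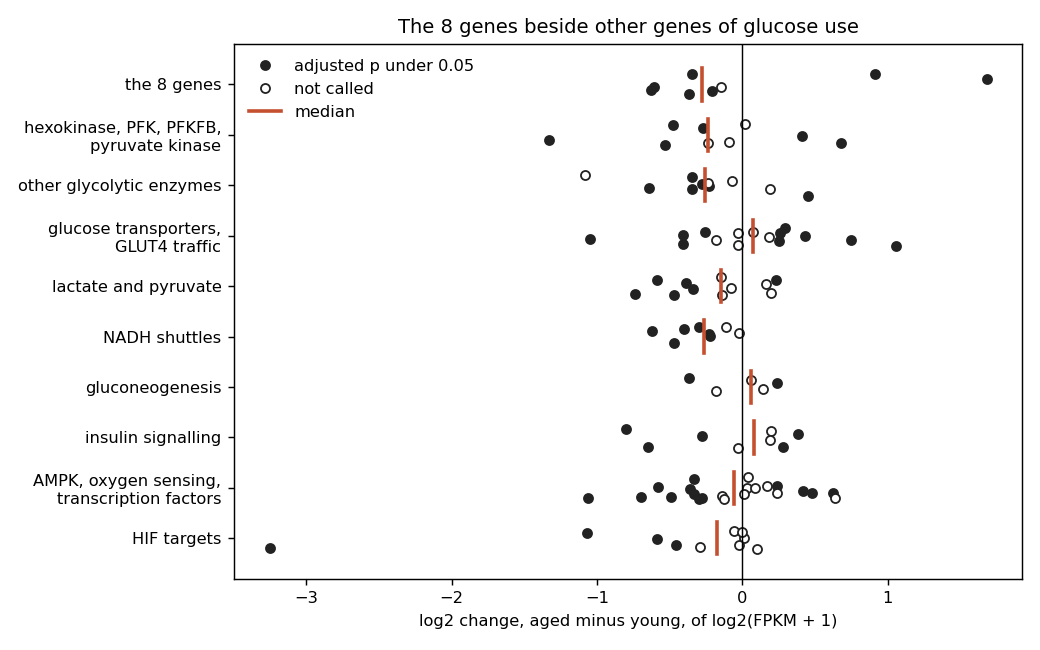
Log2 change with age (x axis, aged minus young, of log2(FPKM + 1)) of the 8 genes and of the tested genes of 9 pathway lists (rows), filled where the adjusted p was under 0.05 and open where it was not, with the median of each list in red. Pfkfb3, at 1.68, lies above every gene of the other lists, and Ddit4, at -3.25, below.

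For each of the 8 genes the closest patterns over the 6 libraries were sought among 7126 tested genes by the root mean square distance of log2(FPKM + 1), each gene centred on its mean. Slc2a4 was closest to Gtpbp2 (distance 0.018), Mbd1 (0.027) and Galk2 (0.028), and Pfkfb1 to Ctsf (0.026), Got2 (0.041) and Pla2g12a (0.051). Slc16a3 was closest to Prkd2 (0.026), Mafk (0.037) and Tpi-rs11 (0.057), and Gpd1 to Cmc2 (0.042), Ak1 (0.045) and Gngt2 (0.053). Ldha was closest to Pqlc1 (0.031), Dmpk (0.035) and its pseudogene Ldha-ps2 (0.038), and Slc2a1 to Mcm7 (0.034), Fbxo3 (0.036) and Wdyhv1 (0.036). Fbp2 was closest to Pou4f1 (0.093), Eya1 (0.094) and C1qtnf4 (0.094). Pfkfb3 had no neighbour nearer than Eda2r (0.133), which stood at 6.54 and 21.9 FPKM, followed by Actr3b (0.141) and Slc8a1 (0.157). The likeness rests on 6 libraries and mostly on the difference between the groups, so it describes these libraries only.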

How the data were processed

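RNA of tibialis anterior was measured in 3 young and 3 aged libraries. The authors deposited FPKM values, in a table per library, with bcl2fastq 2.19, TopHat, DESeq2 and mm9 named per the submitters' processing notes. Positions follow GRCm38 instead: 11210 of 11239 identifiers are in GENCODE M21, 89% with the same start and 98.9% within 5000 bases. Whole fragment counts and library totals were recovered from the FPKM values (within 0.001 of a whole number). Totals, by replicate number, were 99108144, 71984420 and 102135094 for young and 101057913, 90755261 and 89919530 for aged libraries, of which listed genes held 80.2% to 81.3%. At these depths 3 fragments on 1 kb equal 0.0294 to 0.0417 FPKM. In chi-square tests every pair of replicates of a group differed beyond sampling noise (30 to 76.5 per degree of freedom). Symbols of 14 genes that had become dates were restored by identifier, and 1 line per table was left out.

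Genes averaging 1 FPKM or more were compared as log2(FPKM + 1) with limma 3.58.1 in R 4.3.3 (empirical Bayes with trend, two-sided, Benjamini-Hochberg over 7690 genes, called under 0.05), which understates changes of low genes. Folds are ratios of mean FPKM. Ratios within libraries were compared by exact permutation. The scripts were tested on simulated data. The alternatives were other pseudocounts, minimum levels, scalings and variance models, voom on recovered counts, a replicate block, a wider adjustment and leaving out each library. Libraries with the same replicate number deviated together (correlations 0.177, 0.182 and 0.136, beside -0.192 to 0.0358 for other numbers). Whether the numbers pair the samples was not tested. The main limma fits and the exact permutation tests treat the libraries as unpaired, and the replicate block, among the alternatives, treats them as paired. Such a pairing rests on the values, since the labels state no shared litter, batch or day.

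The 8 genes and the lists were chosen with earlier results of these data known, so their calls are no independent support. All 8 are named. The rule allowed up to 4 called genes per list, by size of log2 change, of which a selection is given and some are not reported here, and Pfkfb2, Pfkfb4, Pdk4, Bsg, Tbc1d1, Tbc1d4, Txnip and the ratio partners whatever their values. Gapdh and Slc2a12 (part of the summed glucose transporters) were added after their values were seen. The 3 closest patterns of each gene leave out predicted gene models.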

Additional observations from a re-analysis of the deposited data

How the results depend on the processing

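Over 10 alternatives to the fit and 6 fits that each left out a library, Pfkfb1, Pfkfb3, Fbp2, Slc2a4 and Slc16a3 kept their direction and passed, and Slc2a1 did not pass (limma, adjusted p from 0.0926 with a library left out). The weakest values of the 5 were -0.53 for Pfkfb1, 1.52 for Pfkfb3, 0.80 for Fbp2, -0.25 for Slc2a4 and -0.50 for Slc16a3. Gpd1 kept -0.35 but did not pass when adjusted over all annotated genes (adjusted p = 0.165), and ranged from -0.42 to -0.23 with a library left out. Ldha did not pass with no minimum level (-0.21), median-of-ratios scaling (-0.23), rescaling without the 20 highest genes (-0.15) or adjustment over all annotated genes (-0.21), ranged from -0.28 to -0.15 with a library left out, and changed sign under quantile normalization (0.11). The wider adjustment kept the same p-values and corrected them for all 55450 annotated genes, although only 7690 were tested. The cause of the other differences was not tested. The replicate block changed no call of the 8 genes other than that of Ldha (-0.21, adjusted p = 0.071).

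The number of the 8 genes called lower was 3 when adjusted over all annotated genes and 3 to 5 with a library left out, and 2 were called higher throughout. Over all tested genes 983 were higher and 904 lower with the wider adjustment, against 2097 and 1885 as reported. Rescaling that leaves out the 20 highest genes gave 2648 higher and 1580 lower. Of 288 counts of the pathway lists under alternatives, 264 stayed within 1.5 times the reported count and 24 did not. The 6 ratios kept their sign throughout, and within replicate numbers (a paired sign-flip test) none could reach a p under 0.25. The design has 3 libraries a group, so the spread between libraries and not depth limits these values.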

Other observations

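Gapdh, the glyceraldehyde-3-phosphate dehydrogenase of the glycolytic list, was named after its values were seen. It stood at 557, 698 and 736 FPKM in the young libraries, at 689 and 645 FPKM in aged replicates 1 and 2, and at 67.3 FPKM in aged replicate 3. It was the 1 gene in that library with at least 2 FPKM elsewhere that stood under 0.3 of the lowest other library. Aged replicate 3 also had 6 genes far above all other libraries (a factor of 3). Other libraries departed too, with 3 genes far below and 3 far above in aged replicate 1. Young replicates 1 and 3 had 14 and 4 genes far above. The comparison of Gapdh did not pass (adjusted p = 0.28, limma). Without aged replicate 3, Pfkfb3 changed by 1.63, Fbp2 by 1.02, Pfkfb1 by -0.53, Slc16a3 by -0.56, Slc2a4 by -0.36 and Gpd1 by -0.41 on the log2 scale, and all 6 passed, while Ldha did not (-0.21, adjusted p = 0.0957).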
